A study of Homo sapiens with 2 samples.

Results

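The genes described here build the extracellular matrix: the collagens, the laminins and 11 other secreted matrix proteins, measured in single-cell RNA counts from human embryonic stem cells with and without a labelled knockout of the zinc finger transcription factor ZNF263. A gene was included when its symbol was COL, digits, A and digits, or LAMA, LAMB or LAMC and a digit, or when it was FN1, SPARC, FBN1, FBN2, POSTN, LUM, DCN, VCAN, TNC, NID1 or NID2. The files listed 66 such genes of 33592 genes in all. A minimum of 20 unique molecular identifiers (UMIs, each standing for 1 captured RNA molecule) over both libraries and both barcode sets below left 53 genes, made up of 35 collagens, 9 laminins and 9 others, and 16971 genes of the whole series passed the same minimum. COL4A3 was just inside it with 20 UMIs and LAMB3 just outside with 16 UMIs. The 38 genes with at least 100 UMIs are described one by one, and the 15 with 20 to 99 UMIs by counts and range.

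The cells of both libraries were H1, also called WA01, which is a long-established line of human embryonic stem cells. The KO library is labelled ZNF263 homozygous knockout, made with Cas9 and titled 1-10 KO, and the WT library holds H1 cells with no labelled edit. Both were routinely cultured, dissociated with TrypLE, stained for viability and captured by a microwell and bead method in which polyadenylated RNA of each cell receives the barcode of its bead. The name under which the KO counts were deposited carries another number than this title, and whether both stand for the same clone cannot be told from the sources used here. The labels give neither the number of KO clones nor the part of the gene that was deleted, so values from 1 KO culture stand for the knockout. Since each genotype has a single library, differences have no replicate check and are given without a test. Every interval is a 95% interval that covers counting error only.

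Values were summed over 2 sets of barcodes. Kept cells passed minimums of 1000 UMIs and 500 genes, and genes encoded by the mitochondrial genome (MT-) gave no more than 20% of their UMIs. They were 2286 KO barcodes with 3567881 UMIs and 2935 WT barcodes with 4650391 UMIs. They had medians of 1289.5 UMIs in KO and 1328 UMIs in WT cells and median MT- shares of 5.10% in KO and 4.36% in WT cells. Shallow barcodes had 250 to under 1000 UMIs, with no gene minimum and no MT- limit. They were 50551 KO barcodes with 21086560 UMIs and 56837 WT barcodes with 23784553 UMIs. The libraries shared 20 kept barcodes, 0.875% of KO and 0.681% of WT kept cells, and 4665 shallow ones, 9.23% of KO and 8.21% of WT barcodes. Levels are given as CPM, counts per 1000000 UMIs of the same barcodes. ZNF263 itself held 27 UMIs in KO and 83 in WT kept cells, or 7.57 CPM in KO and 17.8 CPM in WT cells, and 8.54 CPM in KO against 15.6 CPM in WT shallow barcodes, where it was 1.83-fold lower in KO (1.53 to 2.20).

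Collagens are triple-helical proteins whose chains are encoded by separate genes and assemble as homotrimers or heterotrimers. Fibrillar collagens form rope-like fibrils, collagen IV forms the sheet-like network of basement membranes, and laminins, each made of an alpha, a beta and a gamma chain, form the other main basement membrane network. Pluripotent stem cells grow as an epithelium on such a matrix, bind laminins and fibronectin through integrins, and secrete basement membrane components of their own.

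Stretches of upstream sequence are shown because they belong to genes that the results turn on: the type IV collagen genes, which lie in head-to-head pairs, and COL11A1, a marker gene of the set. They are from the RefSeq promoter table (GRCh38.p14), hold only bases before the annotated start, and read 5′ to 3′ on the strand given. Capitals mark GGAGGA, the core repeat of the G-rich motif that ZNF263 is known to bind; GGAGGA and its reverse complement TCCTCC were searched.
The 126 bases between the starts of COL4A1 and COL4A2, chr13:110307158-110307283, plus strand, 1 match: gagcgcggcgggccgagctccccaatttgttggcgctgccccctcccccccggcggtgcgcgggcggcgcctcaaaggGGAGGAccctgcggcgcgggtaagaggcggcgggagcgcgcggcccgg
COL4A5, chrX:108439588-108439837, plus strand, 1 match: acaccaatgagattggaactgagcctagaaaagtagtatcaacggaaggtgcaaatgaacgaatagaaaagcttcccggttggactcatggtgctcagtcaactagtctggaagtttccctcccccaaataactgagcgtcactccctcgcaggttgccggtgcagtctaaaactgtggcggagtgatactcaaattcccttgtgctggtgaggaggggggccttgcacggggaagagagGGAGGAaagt
COL4A6, chrX:108439459-108439708, minus strand, no match: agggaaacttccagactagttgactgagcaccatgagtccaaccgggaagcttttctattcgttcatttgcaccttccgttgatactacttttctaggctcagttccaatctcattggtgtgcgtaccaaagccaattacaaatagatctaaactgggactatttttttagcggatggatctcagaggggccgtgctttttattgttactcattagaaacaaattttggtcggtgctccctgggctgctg
COL11A1, chr1:103108523-103108772, minus strand, 2 matches: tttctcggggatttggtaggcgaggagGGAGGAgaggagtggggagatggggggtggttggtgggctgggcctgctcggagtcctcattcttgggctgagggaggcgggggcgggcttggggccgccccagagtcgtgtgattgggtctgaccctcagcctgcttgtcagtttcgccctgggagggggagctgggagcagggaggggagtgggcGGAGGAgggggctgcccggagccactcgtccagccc
The starts of COL4A1 and COL4A2 lie 127 bases apart, and those of COL4A6 and COL4A5 lie 380 bases apart. The match shown for COL4A5 also lies between the starts of COL4A6 and COL4A5, but beyond the 250 bases searched for COL4A6. Over windows of 250 bases before to 50 bases after a start, GGAGGA or TCCTCC was found in 25 of 47 windows of the genes described here (53.2%; 24 of 39 genes in the table) and in 12865 of 35116 windows of all genes (36.6%). The longer GGAGGAGGA, which contains the shorter motif, was found in 3 of the 47 windows (6.38%) and in 1323 of all windows (3.77%). The windows of all genes had no UMI minimum and were not matched for base composition, so these shares are not directly comparable. The median of the shallow log2 ratios was -0.55 for the 18 genes described one by one that had a match and -0.45 for the 9 that had none. A match says that the letters are present, not that the factor binds there.

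Most matrix genes were lower in the KO library. Collagen UMIs as a family summed to 303 CPM in KO and 438 CPM in WT shallow barcodes, a sum 1.45-fold lower in KO (1.40 to 1.49). Laminin UMIs summed to 137 CPM in KO and 178 CPM in WT shallow barcodes, a sum 1.30-fold lower in KO (1.24 to 1.36). The other matrix genes summed to 382 CPM in KO and 505 CPM in WT, 1.32-fold lower in KO (1.29 to 1.36). The kept cells gave the same order of the libraries. There, collagens summed to 279 CPM in KO and 386 CPM in WT cells, laminins to 124 CPM in KO and 163 CPM in WT cells, and the other genes to 330 CPM in KO and 416 CPM in WT cells, which is 1.38-fold, 1.31-fold and 1.26-fold lower in KO. UMIs are summed over many barcodes, so fewer cells that express a gene and less RNA per cell cannot be told apart.

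Among the single genes, 21 of the 52 measured in shallow barcodes (at least 20 UMIs there) were at least 1.5-fold lower in KO, beside a background of 17.3% of 16479 genes, and 4 were at least 1.5-fold higher, beside a background of 6.42%. These are shares of 40.4% lower and 7.69% higher. In kept cells, 16 of 34 measured genes (47.1%) were at least 1.5-fold lower, beside a background of 16.2%, and 3 (8.82%) at least 1.5-fold higher, beside a background of 5.58%. The median log2 ratio of the measured genes was -0.45 in shallow barcodes and -0.51 in kept cells, against -0.17 and -0.14 over all genes in the same sets. Ratios relative to that all-gene shift are given below where they matter. Of the 38 genes with at least 100 UMIs, 27 had a shallow-barcode interval wholly below equality, 2 (COL1A1 and COL8A1) wholly above it, and 9 had one that held equality. Over all 12636 genes with at least 100 UMIs, 43.6% had an interval below equality and 15% one above it. Over the 34 genes measured in both sets, the log2 ratios of the sets had a Pearson r of 0.80 and a Spearman rho of 0.88 across genes, and 31 had the same sign; COL6A1, COL6A2 and LAMA5 did not. In barcodes of 100 to under 250 UMIs, 18 of 45 measured genes were at least 1.5-fold lower, beside a background of 17.1%, and 3 at least 1.5-fold higher, beside a background of 5.71%. Genes are not independent replicates, and both sets come from the same pair of libraries.

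**Figure D1:**
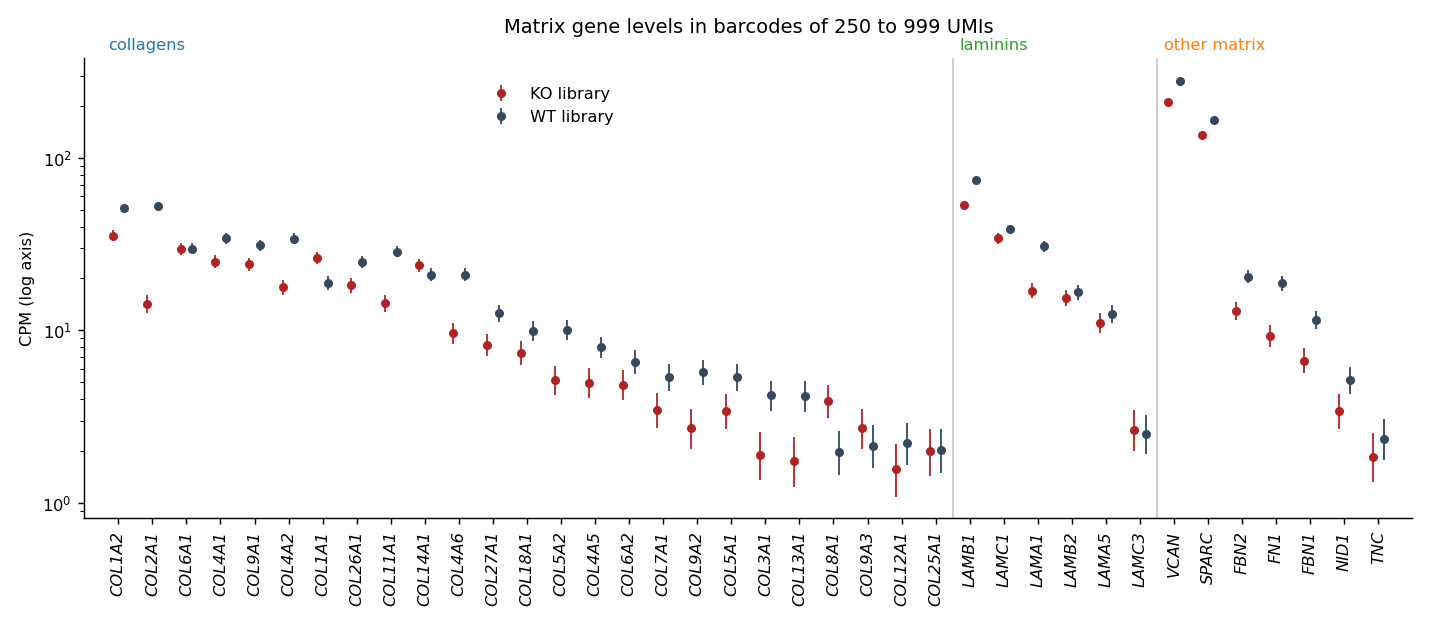
Level of each gene with at least 100 UMIs in barcodes of 250 to under 1000 UMIs, in CPM on a log axis, for the KO library (red) and the WT library (dark blue), grouped into collagens, laminins and other matrix genes. Bars are exact 95% Poisson intervals of the count, not spread between samples; the widest gap is at COL2A1, with 14.2 CPM in KO and 52.4 CPM in WT, and COL1A1 and COL8A1 are the genes with KO above WT and intervals that do not meet.

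Among the fibrillar collagens, COL2A1 had the lowest shallow ratio, and the cartilage-type COL11A1 and COL27A1 were lower in KO shallow barcodes too. COL2A1 encodes the chain of type II collagen, the main fibril of cartilage, which embryos also lay down around the notochord and neuroepithelium (chromosome 12, 47972967 to 48006212). It held 63 UMIs in KO and 247 in WT kept cells, or 17.7 CPM (13.6 to 22.6) in KO and 53.1 CPM (46.7 to 60.2) in WT, and 300 UMIs in KO and 1247 in WT shallow barcodes, or 14.2 CPM in KO and 52.4 CPM in WT. It was 3.01-fold lower in KO in kept cells (2.27 to 4.03) and 3.69-fold lower in shallow barcodes (3.25 to 4.19). Relative to the all-gene shift, the shallow log2 ratio was -1.72. No other gene with at least 100 UMIs had a lower shallow ratio. Without COL2A1, summed collagens still had a log2 ratio of -0.34 in kept cells and -0.42 in shallow barcodes, against -0.46 and -0.53 with it.

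COL11A1, whose chain joins type II collagen in cartilage fibrils and limits their width (chromosome 1, 102876473 to 103108522), held 41 UMIs in KO and 110 in WT kept cells, and 303 in KO and 681 in WT shallow barcodes. Its levels were 11.5 CPM in KO and 23.7 CPM in WT kept cells, and 14.4 CPM in KO and 28.6 CPM in WT shallow barcodes. It was thus 2.06-fold lower in KO kept cells (1.43 to 3.02) and 1.99-fold lower in KO shallow barcodes (1.74 to 2.29). COL27A1, a fibrillar collagen of developing cartilage, held 34 UMIs in KO and 56 in WT kept cells, and 174 in KO and 299 in WT shallow barcodes. This made it 1.52-fold lower in KO there (1.26 to 1.85). In kept cells its interval of 0.811 to 1.996 times lower held equality.

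Type IX collagen decorates the surface of type II fibrils, and its 3 chain genes differed from each other. COL9A1 held 92 UMIs in KO and 132 in WT kept cells, and 511 in KO and 740 in WT shallow barcodes. Its shallow level was 1.28-fold lower in KO (1.15 to 1.44). COL9A2 held 9 UMIs in KO and 31 in WT kept cells, and 57 in KO and 136 in WT shallow barcodes. It was 2.12-fold lower in KO in the shallow set (1.54 to 2.94). COL9A3 held 11 UMIs in KO and 9 in WT kept cells, and 57 in KO and 51 in WT shallow barcodes, a log2 ratio of 0.33 (-0.24 to 0.91). So COL9A2 lay below COL9A1 with intervals that did not meet, while that of COL9A3 held equality.

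Type I collagen, the main fibril of bone and connective tissue, is built of more COL1A1 than COL1A2 chains, and here its genes went opposite ways. COL1A1 (chromosome 17, 50184101 to 50201631) held 85 UMIs in KO and 63 in WT kept cells, and 556 in KO and 450 in WT shallow barcodes. Its levels were 23.8 CPM (19.0 to 29.5) in KO and 13.5 CPM (10.4 to 17.3) in WT kept cells, and 26.4 CPM in KO and 18.9 CPM in WT shallow barcodes. It was 1.76-fold higher in KO in kept cells (1.25 to 2.48) and 1.39-fold higher in shallow barcodes (1.23 to 1.58). COL1A2 (chromosome 7, 94394895 to 94431227) held 118 UMIs in KO and 185 in WT kept cells, and 747 in KO and 1219 in WT shallow barcodes, or 35.4 CPM in KO and 51.3 CPM in WT, 1.45-fold lower in KO in the shallow set (1.32 to 1.59). In kept cells the COL1A2 log2 ratio was -0.27, with an interval of -0.61 to 0.07 that held equality. The UMIs of COL1A1 for each UMI of COL1A2 were 0.744 in KO (0.666 to 0.832) and 0.369 in WT (0.331 to 0.412) shallow barcodes, and 0.720 in KO and 0.341 in WT kept cells.

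Of the genes for collagens that mix into type I fibrils, COL3A1, COL5A1 and COL5A2 were lower in KO in shallow barcodes. COL3A1 encodes type III collagen of soft connective tissue (chromosome 2, 188974373 to 189012746), and COL5A2, a type V chain that helps to start type I fibrils, lies 19151 bases beyond it on the same chromosome. COL3A1 held 0 UMIs in KO and 24 in WT kept cells, and 40 in KO and 100 in WT shallow barcodes, or 1.90 CPM in KO and 4.20 CPM in WT. In shallow barcodes it was 2.22-fold lower in KO (1.52 to 3.28). In kept cells, a floor of 3 UMIs for the KO library makes it at least 6.14-fold lower there, while the lower 95% limit of the ratio from both counts is 4.62-fold. COL5A2 held 14 UMIs in KO and 40 in WT kept cells, and 109 in KO and 240 in WT shallow barcodes. The shallow-set value was 1.95-fold lower in KO (1.55 to 2.47). COL5A1, the other main type V chain, held 8 UMIs in KO and 25 in WT kept cells, and 72 in KO and 127 in WT shallow barcodes. This made it 1.56-fold lower there (1.16 to 2.12), but in kept cells with at least 2000 UMIs its log2 ratio was 0.70. COL5A3, a further type V chain, held 24 UMIs in KO and 31 in WT shallow barcodes, at a ratio of 0.873 (0.490 to 1.54) that held equality. These type III and V genes held at most 403 UMIs each, so their ratios are less precise than those of COL2A1 or COL1A2.

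A single WT cell weighed on the COL3A1 value. Of the 24 UMIs in WT kept cells, spread over 18 cells, 6 were in 1 cell that also held 9 COL1A2, 3 COL27A1, 3 SPARC, 2 COL1A1 and 2 COL5A2 UMIs, and 40 UMIs of the matrix genes in all from 19 different genes. The next highest WT cell held 15 matrix UMIs and the highest KO cell 12. The cell had 2623 UMIs, an MT- share of 5.72%, no UMI of POU5F1, SOX2 or LIN28A, and 2 UMIs of L1TD1. POU5F1 had 50.1 CPM over WT kept cells, a level at which most cells of this depth hold none of its UMIs. Without this cell, COL3A1 held 18 UMIs and COL1A2 176 UMIs in WT kept cells. For COL3A1 the same floor then gave 4.61-fold and the lower 95% limit 3.38-fold. A COL3A1 count of 0 in 2286 KO cells allows a share of cells with a UMI of up to 0.131% by the floor of 3 counts, and of up to 0.161% by the Clopper-Pearson interval.

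**Figure D2:**
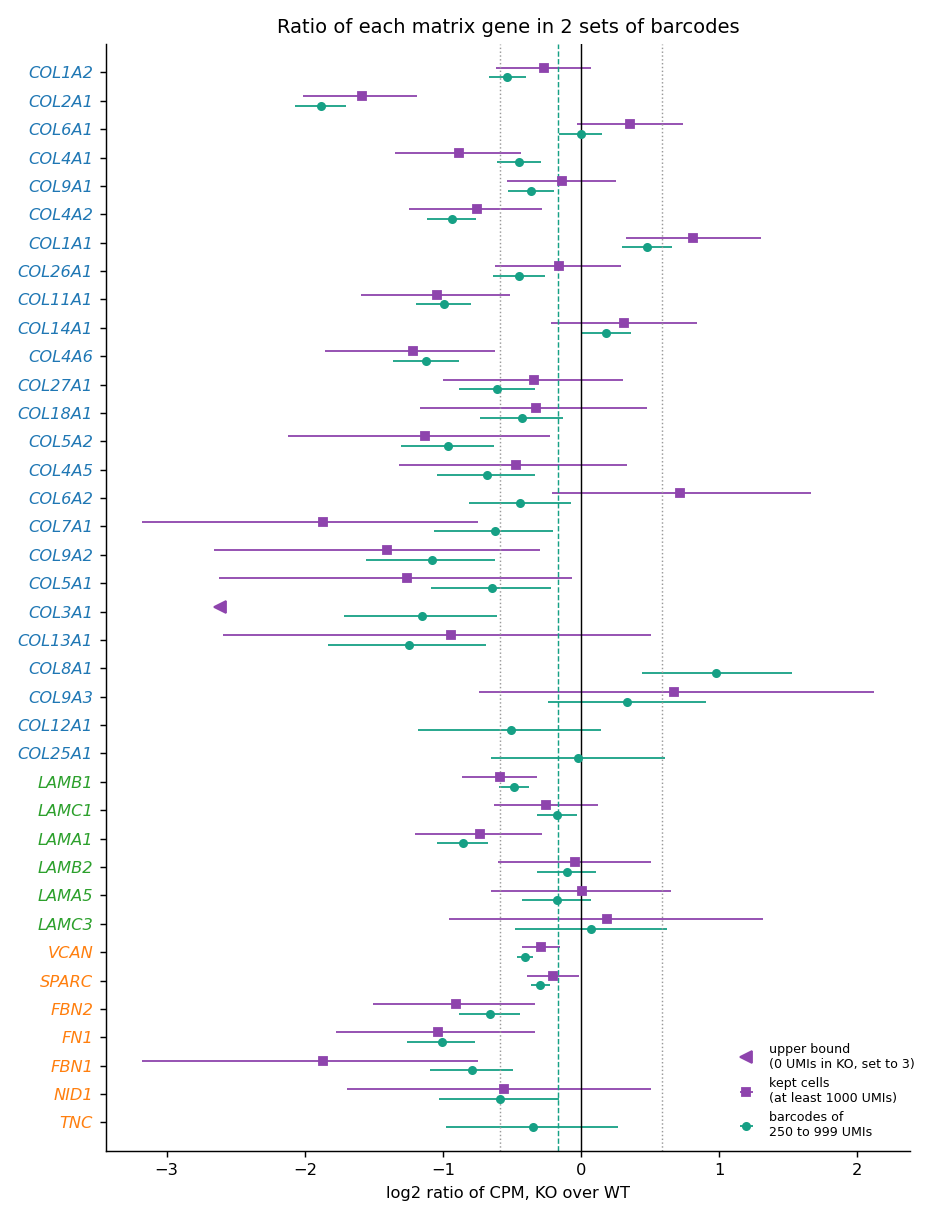
Log2 ratio of KO over WT for each gene with at least 100 UMIs, in kept cells (purple squares, where at least 20 UMIs were counted) and in barcodes of 250 to under 1000 UMIs (green circles), with exact 95% intervals for counting error. The dashed line is the all-gene median of the shallow set (-0.17), and the dotted lines mark 1.5-fold. The triangle is an upper bound for COL3A1 in kept cells by the floor of 3 UMIs for KO. The upper 95% limit of that log2 ratio from both counts, -2.21, lies to its right. Most points lie left of the dashed line, and the shallow intervals of COL1A1 and COL8A1 lie wholly right of 0.

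In shallow barcodes, basement membrane collagen IV was lower in KO in each of its 4 chain genes with at least 100 UMIs. COL4A1 and COL4A2, which form the common heterotrimer and share the upstream sequence shown first above, are transcribed away from each other on chromosome 13. COL4A1 held 59 UMIs in KO and 142 in WT kept cells, and 528 in KO and 812 in WT shallow barcodes, or 25.04 CPM in KO and 34.1 CPM in WT, 1.36-fold lower in KO (1.22 to 1.52). COL4A2 held 55 UMIs in KO and 121 in WT kept cells, and 375 in KO and 809 in WT shallow barcodes, or 17.8 CPM in KO and 34.0 CPM in WT, 1.91-fold lower in KO (1.69 to 2.17). In shallow barcodes the COL4A2 ratio lay below that of its neighbour, with 1.41 COL4A1 UMIs per COL4A2 UMI in KO (1.23 to 1.61) and 1.00 in WT (0.909 to 1.11). In kept cells these values were 1.07 in KO (0.730 to 1.58) and 1.17 in WT (0.914 to 1.51). Those intervals meet and the values are in the opposite order, so the shallow difference was not seen in kept cells.

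COL4A5 and COL4A6 encode chains of the more restricted collagen IV networks of epithelial basement membranes and are likewise paired head to head, on the X chromosome. COL4A6 held 31 UMIs in KO and 94 in WT kept cells, and 204 in KO and 501 in WT shallow barcodes. Its shallow level was 2.18-fold lower in KO (1.85 to 2.57). COL4A5 held 21 UMIs in KO and 38 in WT kept cells, and 105 in KO and 190 in WT shallow barcodes. It was 1.60-fold lower in the shallow set (1.26 to 2.06). The ratio of COL4A5 to COL4A6 UMIs was 0.515 in KO (0.403 to 0.654) and 0.379 in WT (0.319 to 0.449) shallow barcodes, intervals that meet. Of the remaining chains, COL4A3 held 20 UMIs over both sets and libraries and COL4A4 held 15. COL18A1, a basement membrane proteoglycan whose end fragment is endostatin, held 22 UMIs in KO and 36 in WT kept cells, and 156 in KO and 237 in WT shallow barcodes. The shallow-set value was 1.35-fold lower in KO (1.096 to 1.66). NID1, the nidogen that links laminin to collagen IV, held 12 UMIs in KO and 23 in WT kept cells, and 72 in KO and 122 in WT shallow barcodes. This made it 1.502-fold lower there (1.11 to 2.04).

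The laminin genes split by chain. LAMB1, the beta chain of embryonic laminins (chromosome 7, 107923799 to 108003161), held 169 UMIs in KO and 331 in WT kept cells, and 1117 in KO and 1759 in WT shallow barcodes, or 53.0 CPM in KO and 74.0 CPM in WT, 1.40-fold lower in KO (1.29 to 1.51). LAMA1, the alpha chain of the first laminin made in the embryo (chromosome 18, 6941742 to 7117797), held 60 UMIs in KO and 130 in WT kept cells, and 359 in KO and 732 in WT shallow barcodes, or 17.03 CPM in KO and 30.8 CPM in WT, 1.81-fold lower in KO (1.59 to 2.06). LAMC1, the gamma chain shared by most laminins, held 98 UMIs in KO and 152 in WT kept cells, and 720 in KO and 915 in WT shallow barcodes. Its shallow level was 1.13-fold lower in KO (1.021 to 1.24), which is a log2 ratio of -0.01 relative to the all-gene shift. The alpha chain thus differed more between the libraries than the gamma chain it pairs with. There were 0.499 LAMA1 UMIs per LAMC1 UMI in KO (0.438 to 0.567) and 0.8 in WT (0.725 to 0.883) shallow barcodes, against 0.612 in KO (0.436 to 0.853) and 0.855 in WT (0.671 to 1.09) kept cells, where the intervals meet.

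LAMA5, the alpha chain of the other laminin on which pluripotent cells are known to grow, held 37 UMIs in KO and 48 in WT kept cells, and 233 in KO and 297 in WT shallow barcodes, with a ratio of 0.885 in KO over WT there (0.742 to 1.05). LAMB2, the beta chain of mature basement membranes, held 50 UMIs in KO and 67 in WT kept cells, and 326 in KO and 395 in WT shallow barcodes, at a ratio of 0.931 (0.801 to 1.08). LAMC3, a gamma chain of restricted tissues, held 14 UMIs in KO and 16 in WT kept cells, and 56 in KO and 60 in WT shallow barcodes, at a ratio of 1.05 (0.718 to 1.54). The intervals of LAMA5, LAMB2 and LAMC3 held equality. LAMA1 over LAMA5 UMIs were 1.54 in KO (1.30 to 1.82) and 2.46 in WT (2.15 to 2.83) shallow barcodes, while LAMA5 over LAMC1 UMIs were 0.324 in KO (0.278 to 0.376) and 0.325 in WT (0.284 to 0.370). The epithelial chains LAMA3 and LAMB3 held 8 and 16 UMIs over both sets and libraries.

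**Figure D3:**
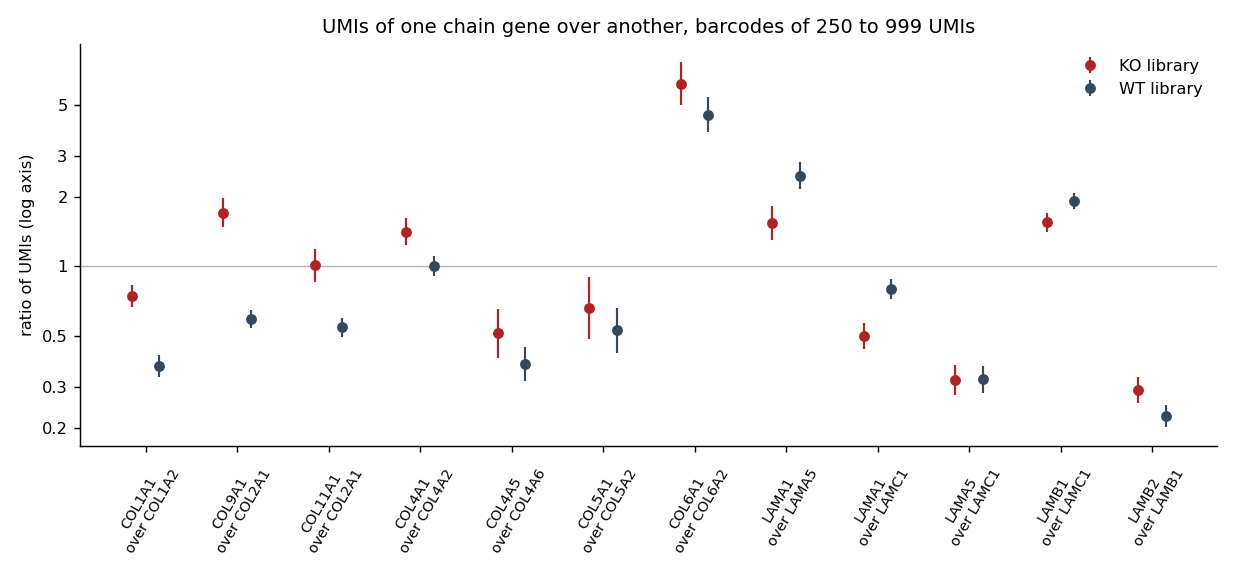
UMIs of one chain gene divided by UMIs of another in barcodes of 250 to under 1000 UMIs, on a log axis, for the KO library (red) and the WT library (dark blue), with exact 95% intervals for counting error. COL1A1 over COL1A2 is 0.744 in KO and 0.369 in WT, COL9A1 over COL2A1 is 1.70 in KO and 0.593 in WT, and LAMA5 over LAMC1 is 0.324 in KO and 0.325 in WT; a ratio of UMIs is not a ratio of chains, since counts are not scaled to transcript length.

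Of the other collagens, those of type VI form beaded microfibrils around cells, and their 2 chain genes with at least 100 UMIs had no common direction over the sets. COL6A1 held 114 UMIs in KO and 116 in WT kept cells, and 626 in KO and 707 in WT shallow barcodes, or 29.7 CPM in both libraries, a log2 ratio of -0.00 (-0.16 to 0.16) there and of 0.36 (-0.03 to 0.74) in kept cells. COL6A2 held 24 UMIs in KO and 19 in WT kept cells, and 102 in KO and 156 in WT shallow barcodes, with log2 ratios of 0.72 (-0.21 to 1.67) in kept cells and -0.44 (-0.81 to -0.07) in shallow barcodes, so its sign depended on the set. Secreted type VI collagen needs another chain besides these, and the gene of the usual one, COL6A3, held 8 UMIs over both sets and libraries.

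COL14A1, a collagen that sits on the surface of interstitial fibrils, held 61 UMIs in KO and 64 in WT kept cells, and 503 in KO and 501 in WT shallow barcodes, a log2 ratio of 0.18 with an interval of -0.00 to 0.36. COL8A1, a short-chain collagen of vessel and eye membranes, held 5 UMIs in each library's kept cells, and 82 in KO and 47 in WT shallow barcodes, or 3.89 CPM in KO and 1.98 CPM in WT, 1.97-fold higher in KO (1.36 to 2.88). Its UMIs in barcodes of 100 to under 250 UMIs were 25 in KO and 24 in WT, a log2 ratio of 0.18, with an interval of -0.69 to 1.05 that held equality. COL26A1, an EMI-domain protein with short collagen stretches, held 70 UMIs in KO and 102 in WT kept cells, and 385 in KO and 593 in WT shallow barcodes. It was 1.37-fold lower in KO in the shallow set (1.199 to 1.56). COL7A1, the anchoring fibril collagen of skin, held 8 UMIs in KO and 38 in WT kept cells, 3.64-fold lower in KO (1.67 to 9.04), and 73 in KO and 127 in WT shallow barcodes. The shallow-set value was 1.54-fold lower (1.15 to 2.09). These genes thus run from higher to lower in KO, with no common direction.

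COL13A1, a transmembrane collagen of cell adhesion sites, held 6 UMIs in KO and 15 in WT kept cells, and 37 in KO and 99 in WT shallow barcodes. This made it 2.37-fold lower in KO there (1.61 to 3.56). COL25A1, another transmembrane collagen, held 6 UMIs in KO and 9 in WT kept cells, and 42 in KO and 48 in WT shallow barcodes, at a ratio of 0.987 (0.636 to 1.53). COL12A1, which like COL14A1 binds fibril surfaces, held 5 UMIs in KO and 14 in WT kept cells, and 33 in KO and 53 in WT shallow barcodes, at a ratio of 0.702 (0.440 to 1.105). The intervals of COL25A1 and COL12A1 held equality.

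Among the glycoproteins and proteoglycans, VCAN and SPARC held most of the UMIs, 90.7% in KO and 88.1% in WT shallow barcodes, so the family sum mostly follows them. VCAN, the large hyaluronan-binding proteoglycan versican (chromosome 5, 83471744 to 83582302), held 699 UMIs in KO and 1115 in WT kept cells, and 4434 in KO and 6621 in WT shallow barcodes, or 210 CPM in KO and 278 CPM in WT, 1.32-fold lower in KO (1.27 to 1.38). SPARC, a collagen-binding matricellular glycoprotein (chromosome 5, 151661096 to 151686915), held 392 UMIs in KO and 587 in WT kept cells, and 2865 in KO and 3960 in WT shallow barcodes. Its shallow level was 1.23-fold lower in KO (1.17 to 1.29). Without both, the log2 ratio of the family sum was -1.04 in kept cells and -0.76 in shallow barcodes, against -0.33 and -0.40 with them.

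The fibre-forming glycoproteins lay further apart. FN1, the fibronectin that cells bind through integrins and on which fibrillin and collagen fibres assemble (chromosome 2, 215360865 to 215436068), held 24 UMIs in KO and 64 in WT kept cells, and 196 in KO and 445 in WT shallow barcodes, or 9.30 CPM in KO and 18.7 CPM in WT, 2.01-fold lower in KO (1.70 to 2.39). FBN2, the fetal fibrillin of elastic microfibrils, held 36 UMIs in KO and 88 in WT kept cells, and 273 in KO and 487 in WT shallow barcodes. It was 1.58-fold lower in the shallow set (1.36 to 1.84). FBN1, the adult fibrillin, held 8 UMIs in KO and 38 in WT kept cells, 3.64-fold lower in KO (1.67 to 9.04), and 141 in KO and 275 in WT shallow barcodes. The shallow-set value was 1.73-fold lower (1.41 to 2.13). All of these intervals were below equality. TNC, the embryonic adhesion-modulating protein tenascin-C, held 1 UMI in KO and 10 in WT kept cells, and 39 in KO and 56 in WT shallow barcodes, at a ratio of 0.786 (0.508 to 1.203), which held equality.

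The 15 genes with 20 to 99 UMIs ran from COL4A3 with 20 to COL23A1 with 96. COL23A1, a transmembrane collagen, held 25 UMIs in KO and 62 in WT shallow barcodes, a log2 ratio of -1.14 (-1.87 to -0.45). Genes of this group with intervals that held equality in shallow barcodes were the larger part, among them LAMA4 at -0.83 (-1.70 to 0.00), LUM at -0.93 (-1.96 to 0.03) and COL10A1 at 0.88 (-0.28 to 2.11). DCN, the proteoglycan decorin of connective tissue, held 1 UMI over both sets and libraries, and NID2 held 9.

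Per cell, the matrix genes were thinly sampled. With each kept cell thinned to 1000 UMIs, which left out no kept cell, 48.6% of KO cells (46.5% to 50.6%) and 56.9% of WT cells (55.1% to 58.7%) held at least 1 UMI of these genes, a difference of -8.31 percentage points (-11.0 to -5.58), against 59.97% of KO and 66.9% of WT cells without thinning. The share for collagens was 23.2% in KO and 30.7% in WT cells, that for laminins 11.5% in KO and 14.5% in WT cells, and that for the others 27.1% in KO and 32.0% in WT cells. A cell of 1000 UMIs drawn from the pooled RNA of barcodes with 10 to 100 UMIs of the same library would hold such a UMI with a chance of 56.7% in KO and 67.8% in WT, above the shares seen. The shares of cells seen were therefore not above those drawn from the pool, and KO was the lower library in the pool too. The chance takes the same profile for every cell of a library. Whether the RNA of that pool came from outside cells was not tested.

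**Figure D4:**
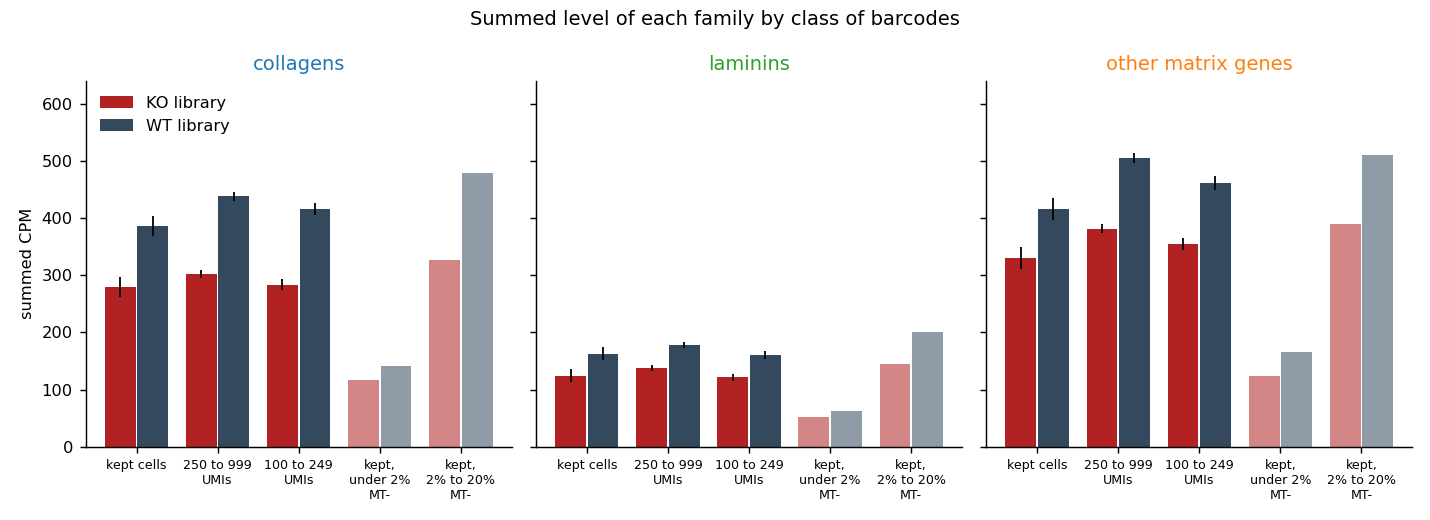
Summed CPM of collagens, laminins and other matrix genes in the KO library (red) and the WT library (dark blue), in kept cells, in barcodes of 250 to under 1000 and of 100 to under 250 UMIs, and in kept cells split by their share of mitochondrially encoded UMIs (paler bars). Bars on the first 3 pairs are exact 95% Poisson intervals, and the paler pairs carry none; KO is the lower bar in each pair, and cells under 2% MT- UMIs have the lowest sums, such as 117 CPM of collagens in KO and 141 CPM in WT.

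Other features also differed between the libraries. Kept cells under 2% MT- UMIs were 503 of 2286 in KO and 784 of 2935 in WT, a smaller share in KO. They had lower matrix sums than the rest, with collagens at 117 CPM in KO and 141 CPM in WT (log2 ratio -0.27, -0.64 to 0.10). In the 1783 KO and 2151 WT kept cells with 2% to 20% MT- UMIs, collagens summed to 327 CPM in KO and 479 CPM in WT (log2 ratio -0.55, -0.67 to -0.43). Over all kept cells the collagen log2 ratio was -0.46 (-0.58 to -0.35). The part of the MT- classes in the collagen difference was not tested. All 7 pluripotency markers were counted in both libraries and summed to 3527 CPM in KO and 2782 CPM in WT shallow barcodes. More than any other, L1TD1 made up that sum, at 1829 CPM in KO and 1313 CPM in WT, while SOX2 was lower in KO at 309 CPM against 359 CPM in WT, and LIN28A was at 739 CPM in KO and 725 CPM in WT. Markers of neuroectoderm summed to 292 CPM in KO and 802 CPM in WT, with 8 of 8 at least 1.5-fold lower in KO. Neural crest markers summed to 36.7 CPM in KO and 72.0 CPM in WT, with 5 of 7 lower and 1, FOXD3, higher. These counts and those of the marker lists below stand beside 17.3% lower and 6.42% higher of all genes in shallow barcodes. Of the cartilage and notochord markers, SOX9, a regulator of COL2A1 and COL11A1 in cartilage, held 174 UMIs in KO and 661 in WT shallow barcodes, while SHH was at 0 in both. ACAN, the defining cartilage proteoglycan, held 1 UMI in KO and 2 in WT; 2 of the list of 7 were measured, both lower, and the list summed to 9.25 CPM in KO and 31.4 CPM in WT. Mesenchymal markers summed to 404 CPM in KO and 318 CPM in WT, nearly all of it THY1 at 381 CPM in KO and 275 CPM in WT, with 3 of 5 measured lower and 1, PDGFRA, higher. PRRX1 held 0 UMIs in KO and 11 in WT, and TWIST1 held 1 in KO and 11 in WT. Endothelial markers summed to 37.7 CPM in KO and 41.1 CPM in WT. Endoderm markers summed to 5.41 CPM in KO and 15.6 CPM in WT, and primitive streak markers to 10.9 CPM in KO and 40.8 CPM in WT. In an alternative, the 39 KO and 168 WT kept cells with 3 or more UMIs of the neuroectoderm marker CRABP1 were left out. That left 16 matrix genes at least 1.5-fold lower and 3 higher, beside 15.5% lower and 5.51% higher of all genes. The log2 ratios were then -1.49 for COL2A1 and -0.98 for COL11A1, against -1.59 and -1.04 before. Cells with fewer CRABP1 UMIs stayed in. The part of the marker genes, CRABP1 among them, in the matrix differences was not tested.

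Genes that act on the matrix showed a mix of directions in shallow barcodes. Of 29 measured genes of collagen folding, modification and cross-linking, 7 were at least 1.5-fold lower and 2 higher, beside the backgrounds of 17.3% and 6.42% of all genes, with a median log2 ratio of -0.40. COLGALT2, a collagen galactosyltransferase, was at 3.70 CPM in KO and 8.20 CPM in WT (log2 ratio -1.15). BMP1, which cleaves procollagen ends, was at 1.85 CPM in KO and 3.95 CPM in WT (-1.10), and P4HA1, a catalytic subunit of prolyl hydroxylase, was at 20.5 CPM in KO and 35.6 CPM in WT (-0.80). PLOD2, the telopeptide lysyl hydroxylase, was at 5.45 CPM in KO and 8.79 CPM in WT (-0.69). PPIB, a cyclophilin that helps collagen to fold, was the exception among the 5 largest, at 12.7 CPM in KO and 5.97 CPM in WT (1.09). SERPINH1, the collagen chaperone HSP47, named here after its value was seen, was within 1.5-fold at 68.3 CPM in KO and 76.0 CPM in WT.

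Of 23 measured matrix receptors, 6 were at least 1.5-fold lower and 2 higher, beside the same 17.3% and 6.42% of all genes, with a median log2 ratio of -0.19, near the all-gene median. ITGA5, the alpha subunit of the main fibronectin receptor, was at 3.70 CPM in KO and 10.2 CPM in WT (log2 ratio -1.47). The collagen receptor DDR2 was at 1.38 CPM in KO and 3.49 CPM in WT (-1.34). ITGA4, another fibronectin-binding integrin subunit, was at 1.47 CPM in KO and 3.24 CPM in WT (-1.14), and ITGB8 at 3.65 CPM in KO and 6.01 CPM in WT (-0.72). SDC4, a heparan sulfate co-receptor for fibronectin, was at 17.6 CPM in KO and 9.63 CPM in WT (0.87). ITGA6, the laminin-binding subunit, also named after its value was seen, was at 130 CPM in KO and 127 CPM in WT. ITGAV and ITGB1, named likewise after their values were seen, had log2 ratios of -0.28 and -0.29.

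Of 23 measured matrix proteases and inhibitors, 7 were at least 1.5-fold lower and 2 higher, beside 17.3% and 6.42% of all genes, with a median log2 ratio of -0.23. ADAMTS9, a protease that cleaves versican, was at 2.23 CPM in KO and 8.49 CPM in WT (log2 ratio -1.93), and the gelatinase MMP2 at 18.9 CPM in KO and 41.0 CPM in WT (-1.12). The inhibitors TIMP3, at 1.90 CPM in KO and 3.95 CPM in WT (-1.06), and TIMP4, at 9.53 CPM in KO and 4.12 CPM in WT (1.21), went opposite ways, and the sheddase ADAM17 was at 4.51 CPM in KO and 7.02 CPM in WT (-0.64). Of 46 measured matrix proteins outside the rule, 18 were at least 1.5-fold lower and 4 higher, beside 17.3% and 6.42% of all genes, with a median of -0.35. HAPLN1, which links versican and aggrecan to hyaluronan, was at 1.04 CPM in KO and 7.65 CPM in WT (-2.87), and SLIT2, a secreted axon guidance ligand, at 5.17 CPM in KO and 19.8 CPM in WT (-1.94). EFEMP2, an elastic fibre protein, was at 1.42 CPM in KO and 3.15 CPM in WT (-1.15). SMOC1, a basement membrane glycoprotein, was at 8.39 CPM in KO and 18.4 CPM in WT (-1.13), and LTBP4, a TGF-beta binding protein, at 4.27 CPM in KO and 9.29 CPM in WT (-1.12). In kept cells the counts of lower and higher genes were 4 and 2 of 23 for collagen processing, 3 and 2 of 14 for receptors, 4 and 2 of 18 for proteases and inhibitors, and 10 and 2 of 25 for the other matrix proteins, beside 16.2% lower and 5.58% higher of all genes.

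Gene length and neighbouring transcripts were also checked. Across the 38 genes, the genomic span and the shallow log2 ratio had a Pearson r of -0.14 and a Spearman rho of -0.25. Genes listed as antisense to or divergent from one of these genes held at most 2.60% as many UMIs as their partner, the highest being FBN1-DT with 12 UMIs. Whether reads were counted by strand is not given in the sources used here, so reads of such pairs cannot be told apart if they were not.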

How the data were processed

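The values are raw UMI counts that the authors deposited, whole numbers without normalization, for 1 KO and 1 WT library. Per the submitters' processing notes, hg38, Subread, featureCounts 2.0.1, STAR 2.7.10a and UMI-tools 1.1.2 were used, in no stated role. Annotation and barcode filtering: not given in the sources used here. All entries of the KO table were read, 15 beyond the number in its header. Doublets were not removed. UMIs were summed over the kept and the shallow barcodes, scaled to their total (CPM), and given exact Poisson intervals for levels, conditional binomial intervals for ratios and Clopper-Pearson intervals for shares; counts of 0 used a floor of 3 UMIs. A gene was measured in a set with at least 20 UMIs there. Genes with at least 100 UMIs over both sets were described singly. Up to 6 of the others were named in Results, as were the 5 largest shallow log2 ratios of each context list with at least 100 UMIs. The values of 1 of the 53 genes are not reported here. The functions were tested on simulated data. Members, lists and rules were chosen with earlier results of these data known. Coordinates and promoters are from RefSeq (GRCh38.p14). Promoter windows were used for 39 of the 53 genes; those of COL2A1, COL1A1, COL1A2, COL3A1, COL5A2 and COL6A1 are not analysed here. Alternatives were other cell filters, scalings, gene minimums and fold limits. Python 3.11.15, NumPy 2.4.6, SciPy 1.17.1, pandas 2.3.3 and Matplotlib 3.10.9 were used.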

Additional observations from a re-analysis of the deposited data

Results flagged for a closer look

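COL1A1 was 1.57-fold higher in the KO library in barcodes of 100 to under 250 UMIs, which lie outside the kept and shallow sets, with 334 UMIs in KO and 231 in WT. It was picked out because its ratio there passed 1.5-fold with an interval above equality, the same direction as in the kept and shallow sets. It was not alone, since 3 of 45 measured genes were at least 1.5-fold higher in those barcodes. Of these, only COL1A1 held at least 100 UMIs over the kept and shallow sets. COL21A1 held 26 UMIs in KO and 8 in WT there, 3.53-fold higher in KO (1.55 to 9.02). Its log2 ratios were 0.53 in kept cells and 0.55 in shallow barcodes, with intervals that held equality. The cause of these differences was not tested.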

How the results depend on the processing

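No paired analysis was possible because each genotype has 1 library, and leaving out a replicate was not possible for the same reason. The depth of kept cells limits genes with under 50 UMIs. Of the alternatives to results that answer a comparison, 113 gave the same reading and 28 moved; of those to single genes, 649 gave the same reading, 36 moved and 7 reversed. No alternative turned the direction of a family sum. The alternatives without genes, without the WT cell of 40 matrix UMIs, without shallow barcodes of 9 or more matrix UMIs, by MT- class and with barcodes of 100 to under 250 UMIs were chosen after seeing the data. With the median ratio of all genes with at least 100 UMIs set to 0, log2 ratios were -0.34 for collagens and -0.21 for other matrix genes in kept cells, and -0.38 for collagens, -0.22 for laminins and -0.25 for other matrix genes in shallow barcodes. Without MT- and ribosomal protein genes in the total, collagens were at -0.47 and other matrix genes at -0.34 in shallow barcodes. Without COL2A1, collagens were at -0.34 in kept cells and -0.42 in shallow barcodes; without VCAN and SPARC, other matrix genes were at -1.04 and -0.76. In kept cells under 2% MT- UMIs, collagens were at -0.27, with 2 genes at least 1.5-fold lower and 0 higher of 10 measured, beside 12.9% and 6.83% of all genes. With at least 2000 UMIs per cell, laminins were at -0.17, 6 genes were lower and 5 higher of 22, beside 17.1% lower and 5.91% higher of all genes, and the share difference was -4.54 points (-11.1 to 2.11). At most 10% MT- UMIs left 1 gene higher in kept cells, beside 5.48% of all genes, and thinning left 1, beside 5.70%. A gene minimum of 50 UMIs left 10 lower and 1 higher in kept cells, beside 12.5% and 3.41% of all genes. That minimum left 2 higher in shallow barcodes, beside 4.52% of all genes. Barcodes of 250 to under 500 UMIs left 2 higher, beside 5.94% of all genes. At a limit of 2-fold, 10 genes were lower and 0 higher in kept cells, beside backgrounds of 6.06% and 1.63%, and 8 lower and 0 higher in shallow barcodes, beside 7.22% and 1.98%. Single genes that reversed in kept cells were COL6A2 at -0.18 with at least 500 UMIs and -0.34 under 2% MT- UMIs; COL5A1 at 0.70 and FBN2 at 0.23 with at least 2000 UMIs; and COL4A1 at 0.077, COL4A2 at 0.20 and COL9A2 at 0.66 under 2% MT- UMIs. Fewer UMIs remain in the last 2 subsets; the cause was not tested. COL25A1, COL6A1 and LAMB2, all within 1.5-fold, changed sign with scaling.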

Other observations

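Matrix UMIs per barcode had a short tail in each library. Among shallow barcodes, 25 in KO (0.0495%) and 49 in WT (0.0862%) held 5 or more matrix UMIs, and 4 in KO and 1 in WT held 9 or more. Of the 4 KO barcodes, 3 held COL1A1, at 4, 2 and 4 UMIs, and 2 held COL3A1, at 1 and 2 UMIs. All 4 held FN1, at 1 or 2 UMIs, and none held COL2A1. Of the pluripotency markers, SOX2 was seen in 3 of them, at 2, 1 and 1 UMIs, LIN28A and L1TD1 in 1, and POU5F1 in 0. POU5F1 had 65.3 CPM over KO shallow barcodes. At that level most barcodes of under 1000 UMIs hold no POU5F1 UMI, so its count of 0 says little about these barcodes. The WT barcode held 2 COL1A1, 1 COL1A2, 2 COL4A1 and 3 SPARC UMIs. Without these barcodes the shallow log2 ratio was 0.46 for COL1A1 and -1.26 for COL3A1, against 0.48 and -1.15 with them. These barcodes were chosen after their values were seen, and what they hold beyond RNA counts was not tested.

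Neighbouring genes of the set did not always move alike. COL3A1 and COL5A2 had shallow log2 ratios of -1.15 and -0.97, while COL6A1 and COL6A2, 93063 bases apart on chromosome 21, had -0.00 and -0.44. LAMA5 and COL9A3, 448900 bases apart on chromosome 20, had -0.18 and 0.33.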
